A study of Zea mays with 2 samples.

Results

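The maize mitochondrial genome contributed 43 of the 34022 loci listed in RNA-seq files of 15 DAP (days after pollination) kernels. They were taken by a rule that uses no expression value: every locus whose position string names the mitochondrion as its sequence was kept, and values with the same position in a library were summed. Wild-type (WT) kernels gave 1 library and kernels carrying a ZmMADS47 RNAi transgene gave the other, both of the same age. The methods describe kernels of both kinds as pools by genotype from selfed heterozygous plants of a single transgenic line, in which an endosperm zein promoter drives the RNAi fragment. The labels name the tissue as endosperm and the source as kernel, and markers of either tissue were not examined. The files hold positions without gene names. With 1 library per genotype there is no replicate check, and every difference below is a difference between these 2 libraries. In bulk RNA, fewer mitochondria or cells and less RNA per cell cannot be told apart.

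A plant mitochondrial genome encodes a small part of the machinery of respiration. Its genes cover subunits of complex I (nad), complex III (cob), complex IV (cox) and ATP synthase (atp), proteins that mature cytochrome c (ccm), proteins of the mitochondrial ribosome (rps, rpl), a maturase that helps introns splice (mat-r), ribosomal and transfer RNAs, and open reading frames (orf) of mostly unknown function. Maize mitochondria pass through the mother, their mRNAs are edited from C to U at many sites, and mature plant mitochondrial transcripts mostly lack the stable poly(A) tail of nuclear mRNAs. Parts of this genome are present in more than one copy, and such copies are named a1 and a2 here.

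Gene names came from positions on the mitochondrial sequence. With starts counted from 1, 14 of the 43 loci matched a gene of the RefSeq mitochondrial annotation at both ends, whereas 0 did with the starts as printed in the files. A further 14 loci shared 1 end with a gene, 9 held whole genes inside, 1 overlapped part of a gene and 5 overlapped no annotated gene. The RefSeq table belongs to a later assembly than the AGPv2 build of the files, so it was used for names only, and all positions below are those of the files. Exons and introns are not given in the files. No gene or protein sequence was at hand for these loci, so none is printed.

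FPKM (fragments per kilobase of exon, scaled to the mapped fragments of a library) is a level per length, and the authors' files list only values above 0. The FPKM of all loci summed to 1241764 for WT and to 1102577 for RNAi. The ZmMADS47 locus had an FPKM of 8.79 in WT and 4.01 in RNAi kernels, a ratio of 0.457 in the direction of the label. The number of reads behind a value is unknown. Low nuclear values were not whole multiples of the lowest value of the same span: 4.31% in WT and 4.61% in RNAi lay within 0.02 of a whole multiple, against 4.0% for evenly spread values, so reads could not be recovered.

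Mitochondrial loci held a trace of the listed FPKM in both libraries. The 43 loci, 0.126% of all loci, summed to 46.0 FPKM in WT and 73.3 FPKM in RNAi kernels. These sums are 0.0037% of all FPKM in WT and 0.00665% in RNAi. They are shares of listed FPKM, which the methods base on unique reads. The share of mitochondrial RNA in all RNA of the kernels was not measured. The median listed mitochondrial locus had an FPKM of 0.449 in WT and 0.672 in RNAi kernels, against nuclear medians of 3.99 and 4.25. The mitochondrial medians stood at percentile 14.4 of the nuclear values in WT and percentile 19.4 in RNAi. Of 35 loci listed in WT, 9 reached an FPKM of 1 and 0 reached 10. Of 32 loci listed in RNAi, 10 reached 1 and 1 reached 10. Chloroplast loci were lower still, with 11 listed loci that summed to 2.40 FPKM in WT and 1.93 FPKM in RNAi, a ratio of 0.804, and none of them reached 1 in either library.

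The RNAi over WT ratio of the mitochondrial sum was 1.59, whereas the same ratio over all loci was 0.888. The sum over all loci depends on very abundant loci, with values up to 67320 FPKM in WT. The median ratio of the 27552 loci with equally many values in both libraries was 1.04. Much of the difference between the 2 mitochondrial sums came from 1 short locus. It lies at 266974 to 267231 of the mitochondrial sequence, spans 258 bp, overlaps no annotated gene and ends 513 bp before the locus of mat-r. Its FPKM was 6.19 in WT and 29.1 in RNAi kernels, which is 13.5% of the mitochondrial sum in WT and 39.7% in RNAi. Without it the other 42 loci summed to 39.8 FPKM in WT and 44.2 FPKM in RNAi, a ratio of 1.11. The direction of the remaining sum rested on rps12, which had 6.96 FPKM in RNAi and no listed value in WT. Without rps12 as well, the other 41 loci summed to 39.8 FPKM in WT and 37.2 FPKM in RNAi, a ratio of 0.935.

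The ratio of the 258 bp locus was 4.71, or 2.23 on the log2 scale. Among 7479 nuclear loci with a mean FPKM of 0.5 to 2 times its own this ratio stood at percentile 99.8. Short loci varied more, and among the 35 nuclear loci that were also within 10% of its span it stood at percentile 91.4. The lowest nuclear value at like spans was 2.31 FPKM in WT and 4.0 FPKM in RNAi, so that the locus was listed at 2.68 and 7.29 times this floor. The WT value was thus closer to the lowest listed level of loci of this length than the RNAi value was.

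**Figure D1:**
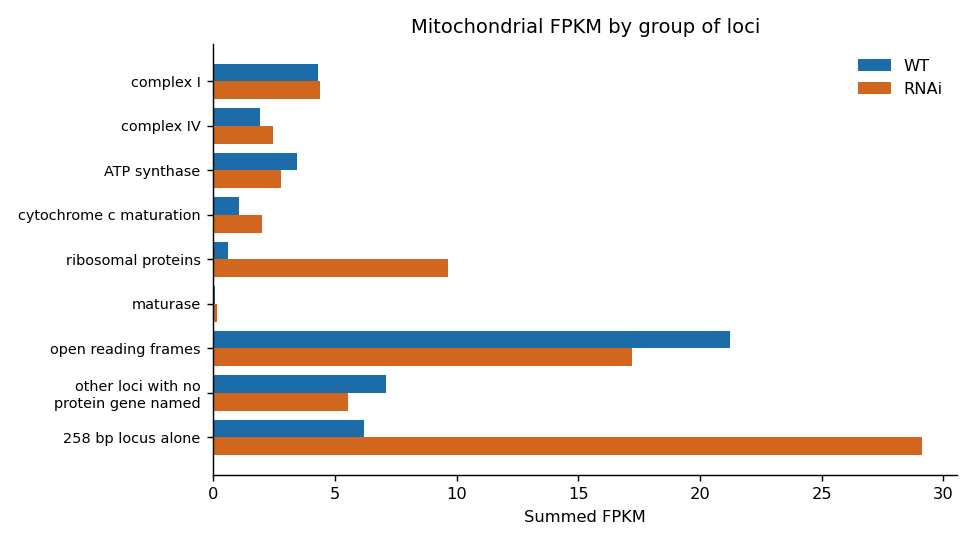
Summed FPKM of the mitochondrial loci by group in the WT library (blue) and the RNAi library (orange), with 1 library per bar and no error. The 258 bp locus had 6.19 in WT and 29.1 in RNAi, the open reading frames had 21.2 and 17.2, and the ribosomal proteins hold rps12 and rps7, which are listed in RNAi only.

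Genes of the respiratory chain and of translation were named at 23 loci, and 24 of the 36 genes of the lists were covered by them. No value was analysed here for the other 12, which are nad1, nad3, nad4L, cob, atp9, ccmC, rps2B, rps13, mttB and the ribosomal RNAs rrn5, rrn18 and rrn26. Of the 23 loci, 12 had an equal number of values in WT and RNAi. The others have no ratio and cannot count as above or below a limit. The part of nad2, nad6, cox1, atp4, ccmB and rps4 were listed in WT only. RNAi alone listed nad5, nad7, rps12 and rps7, and ccmFN held unequal numbers of values. Among the 12 loci with a ratio, 6 had a ratio above 1.4, 0 had a ratio below 0.71 and 6 lay between, and the median ratio was 1.51. These are the fold limits that the study set for changed genes, applied without its P limit, which needs read counts. The background is 19.1% above 1.4 and 15.8% below 0.71 among all 27552 loci compared in this way, with a median ratio of 1.04. At an FPKM of 0.1 to under 1, where most of these genes lie, 32.6% of nuclear loci were above and 30.0% below. The number above 1.4 was 6 when RNAi values were divided by the median ratio of abundant loci and 7 when both libraries were set to an equal sum. With a pseudocount of 1 it was 2, and 0 loci were below 0.71 in each of these settings.

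The nad genes encode subunits of complex I, the NADH dehydrogenase at the entry of the respiratory chain. nad9, matched at both ends, had an FPKM of 0.560 in WT and 0.934 in RNAi kernels, a ratio of 1.67. nad4, matched at both ends of an 8845 bp span, had an FPKM of 0.187 in WT and 0.566 in RNAi, a ratio of 3.03. Both were higher in the RNAi library. In WT, nad9 was at 1.91 times and nad4 at 5.49 times the lowest nuclear value of like span. The other 4 nad loci were each listed in 1 library only. nad5 had 2.78 FPKM in RNAi and nad7 had 0.112 FPKM in RNAi, whereas nad6 had 0.449 FPKM in WT. The nad5 locus shares 1 end with the gene and also holds orf105-c. A 294 bp locus at 509973 to 510266, which overlaps part of nad2, had 3.12 FPKM in WT. As a group the 6 complex I loci summed to 4.31 FPKM in WT and 4.39 FPKM in RNAi, so the loci listed on one side offset each other.

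Complex IV is cytochrome c oxidase, the last complex of the chain, and its catalytic core is encoded in the mitochondrion. The locus that holds cox2 had an FPKM of 0.981 in WT and 2.02 in RNAi kernels, a ratio of 2.06. It spans 3687 bp, well beyond cox2 itself. cox3 went the other way, with 0.579 FPKM in WT and 0.457 FPKM in RNAi, a ratio of 0.788 that is inside the limits. cox1 was listed in WT only, at 0.362 FPKM.

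The atp genes encode subunits of ATP synthase, and no ratio of this group passed a limit. Of 5 loci, 4 had a ratio, from 0.758 to 1.34. atp6, which encodes a membrane subunit, had 1.29 FPKM in WT and 0.980 FPKM in RNAi kernels. atp8, another membrane subunit, had 0.313 FPKM in WT and 0.252 FPKM in RNAi. atp1, the alpha subunit of the catalytic head, is present as atp1-a1 and atp1-a2, at loci of 2009 bp each. atp1-a1 had 0.728 FPKM in WT and 0.712 FPKM in RNAi, and atp1-a2 had 0.637 FPKM in WT and 0.855 FPKM in RNAi. Reads of near-identical copies may be split between them, or left out, since the methods state that unique reads were normalized. Which of these applies was not tested. The sum of both copies was 1.37 FPKM in WT and 1.57 FPKM in RNAi, a ratio of 1.15. atp4 was listed in WT only, at 0.465 FPKM. The 5 loci summed to 3.44 FPKM in WT and 2.80 FPKM in RNAi.

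The ccm proteins attach haem to c-type cytochromes. The locus of ccmFC spans 3016 bp, shares 1 end with the gene and also holds orf102-a. It had an FPKM of 0.338 in WT and 1.12 in RNAi kernels, a ratio of 3.30, and it stood at percentile 94.5 of nuclear loci of like FPKM. The locus of ccmFN, which also takes in most of rps1, held a single value of 0.170 FPKM in WT and 2 values, 0.136 and 0.733 FPKM, in RNAi. Its sums may therefore cover different genes, and no ratio is drawn from them. ccmB was listed in WT only, at 0.569 FPKM.

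Among the genes of the mitochondrial ribosome, the most abundant were listed in a single library. rps12, matched at both ends of 378 bp, had 6.96 FPKM in RNAi kernels and no listed value in WT. rps7, matched at both ends of 447 bp, had 2.08 FPKM in RNAi and no listed value in WT. rps4 was listed in WT only, at 0.160 FPKM. rps2A had 0.379 FPKM in WT and 0.409 FPKM in RNAi, a ratio of 1.08. The locus that ends with rps3 and holds rpl16 had 0.0803 FPKM in WT and 0.186 FPKM in RNAi, a ratio of 2.32. The locus of mat-r, the maturase, had 0.0870 FPKM in WT and 0.148 FPKM in RNAi, a ratio of 1.70. Both of the latter were among the lowest mitochondrial values, at 1.85 and 1.39 times the lowest nuclear value of like span in WT.

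**Figure D2:**
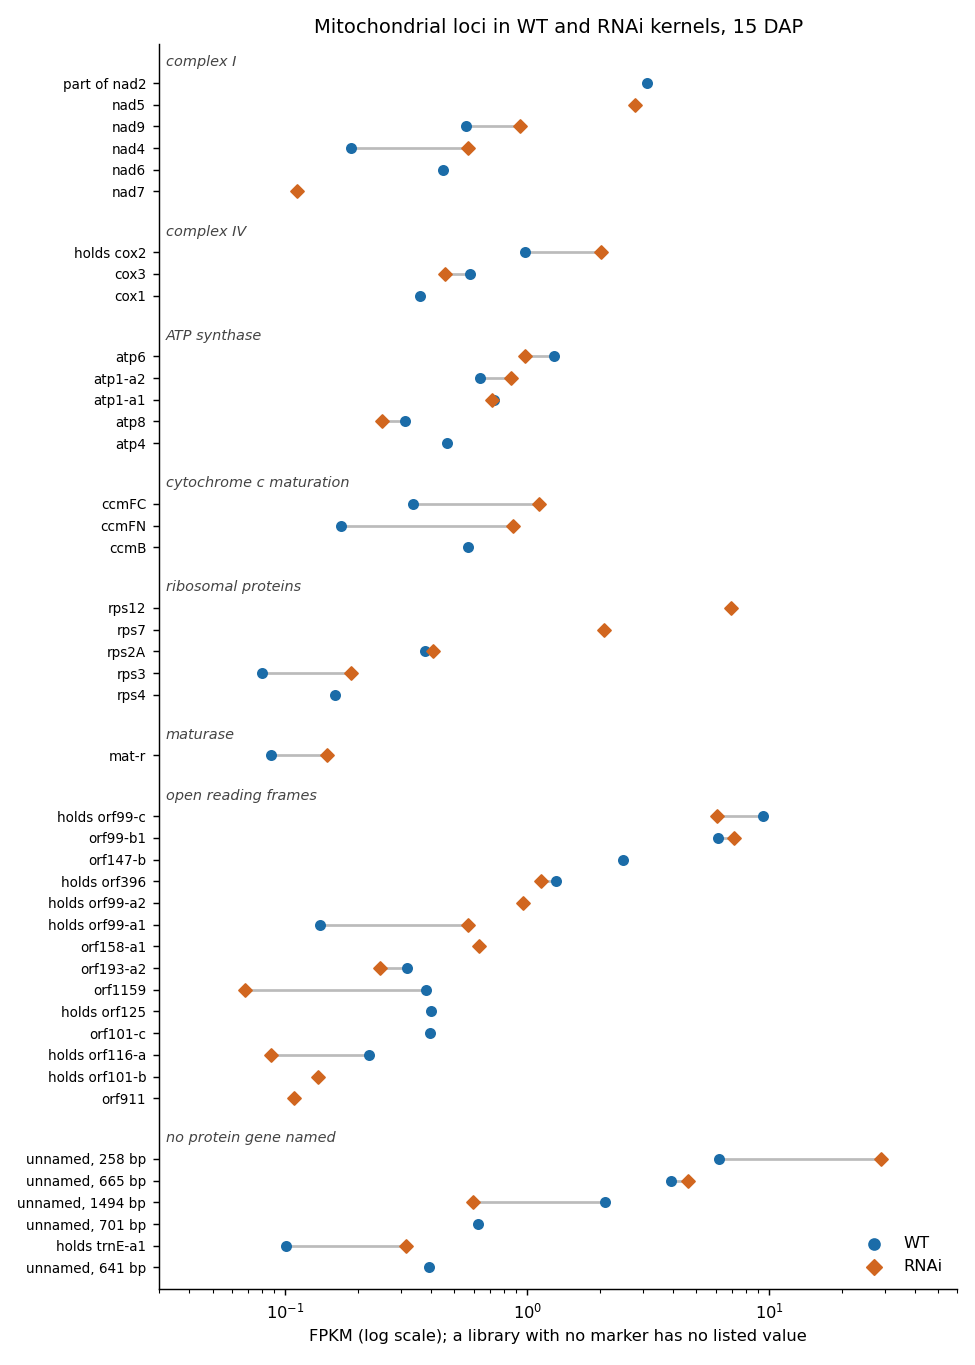
FPKM (log scale) of each of the 43 mitochondrial loci in WT (blue circles) and RNAi (orange diamonds), grouped by the gene named at the locus, with a grey line joining both values. Loci with a single marker are listed in 1 library only, and the 258 bp locus in RNAi, at 29.1 FPKM, is the only value above 10.

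Open reading frames were named at 14 loci, which together held 21.2 FPKM in WT and 17.2 FPKM in RNAi kernels. The most abundant of them is a 4330 bp locus at 111497 to 115826 that holds 6 open reading frames from orf99-c to orf99-b2. It had 5 values that summed to 9.43 FPKM in WT and 4 values that summed to 6.10 FPKM in RNAi, so its ratio of 0.647 compares different numbers of values. orf99-b1, the other copy of one of these frames, had 6.14 FPKM in WT and 7.15 FPKM in RNAi, a ratio of 1.16. orf158-a1 was listed in RNAi only, at 0.632 FPKM, and 1 of the 4 RNAi values of the 4330 bp locus, which holds the copy orf158-a2, equals it to every printed digit.

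The lowest ratio of any mitochondrial locus was at orf1159, with an FPKM of 0.381 in WT and 0.0680 in RNAi kernels, a ratio of 0.179. It stood at percentile 1.16 of nuclear loci of like FPKM and at percentile 2.84 when the span was also alike. The locus that holds orf116-a and orf248 had 0.222 FPKM in WT and 0.0873 FPKM in RNAi, a ratio of 0.392. The locus that holds orf99-a1 was higher in RNAi, with 0.139 FPKM in WT and 0.571 FPKM in RNAi, a ratio of 4.11 at percentile 96.5. At each of these loci the lower value was close to the lowest nuclear value of like span. It was 2.11 times that value at orf1159 and 1.53 times at orf116-a, both in RNAi, and 2.08 times at orf99-a1 in WT. The locus of orf396 and orf342 had 1.32 FPKM in WT and 1.14 FPKM in RNAi, and orf193-a2 had 0.317 FPKM in WT and 0.247 FPKM in RNAi, both inside the limits. Of the 7 frames listed in 1 library, the highest was orf147-b, with 2.49 FPKM in WT, and the other 6 ranged from 0.108 to 0.958 FPKM.

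At 6 loci no protein gene was named. Besides the 258 bp locus, a 665 bp locus at 548031 to 548695 had 3.92 FPKM in WT and 4.64 FPKM in RNAi kernels, a ratio of 1.18. A 1494 bp locus at 259447 to 260940 had 2.09 FPKM in WT and 0.597 FPKM in RNAi, a ratio of 0.286 at percentile 4.37, or 6.04 when the span was also alike. The locus that holds the transfer RNA genes trnE-a1 and trnP-a1 had 0.10 FPKM in WT and 0.317 FPKM in RNAi, a ratio of 3.15 at percentile 95.3, or 94.1 when the span was also alike. Its WT value was 2.25 times the lowest nuclear value of like span. The other 2 loci, of 701 and 641 bp, were listed in WT only, at 0.623 and 0.394 FPKM. These loci held the highest ratio of the compared mitochondrial loci, 4.71, and also 1 of the 3 ratios below 0.71, so they did not share a direction.

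Of the 43 loci, 22 could be compared because WT and RNAi held equally many values, and 13 of these were higher in RNAi and 9 were higher in WT. Their ratios ran from 0.179 to 4.71, with a median of 1.17 and quartiles of 0.792 and 2.26. Above 1.4 were 9 loci, below 0.71 were 3 and between were 10. These are 40.9% above and 13.6% below, beside the background of 19.1% and 15.8% given for all loci with no minimum.

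When an FPKM of 1 had to be reached in WT, in RNAi or in both, 8 mitochondrial loci were left. Of these 8, 3 were above 1.4 and 1 was below 0.71, with a median ratio of 1.17, and 3 of these 4 passed the minimum only through the library in which they were higher. The background among all 23014 loci compared with this minimum was 17.0% above and 13.6% below, with a median ratio of 1.05. The 3 higher loci were the 258 bp locus, the locus that holds cox2 and ccmFC, and the lower one was the 1494 bp locus. The 258 bp locus alone among them reached 1 in both libraries, and with 1 required in both, 4 loci were left, with 1 above and 0 below. No share over all loci is given for that setting. The other 4 of the 8 were orf99-b1, the 665 bp locus, atp6 and the locus of orf396 and orf342.

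Nuclear loci of similar FPKM also had widely spread ratios at low levels. The full range is given for mitochondrial loci and percentiles for nuclear loci, which are unlike measures of spread. At a mean FPKM of 0.1 to under 1, 15 mitochondrial loci had a ratio, with 7 above 1.4, 2 below 0.71 and log2 ratios from -2.49 to 2.04. Their median ratio was 1.34. For the 5355 nuclear loci of that class the 5th and 95th percentiles of the log2 ratio were -1.92 and 1.78, with a median ratio of 0.960. Of these nuclear loci, 32.6% were above 1.4 and 30.0% were below 0.71. At 1 to under 10, 6 mitochondrial loci had a ratio, with 1 above and 1 below and log2 ratios from -1.81 to 1.04, whereas the nuclear percentiles were -1.20 and 1.21. Nuclear loci of that class were 21.6% above and 17.4% below. The median ratio was 1.01 for the 6 mitochondrial loci and 1.05 for the nuclear loci. At 10 to under 100 the 258 bp locus stood alone, where the nuclear percentiles were -0.49 and 0.57. Of nuclear loci in that class, 7.06% were above and 4.95% below. The 258 bp locus reached this class only through its RNAi value of 29.1 FPKM. Its WT value of 6.19 FPKM lies in the class of 1 to under 10. Over the 22 loci, 17 lay between percentiles 5 and 95 of their own nuclear neighbours in FPKM, 3 lay above and 2 lay below, and the median percentile was 64.9. Among neighbours alike in both FPKM and span, 19 lay between, 2 lay above and 1 lay below, with a median percentile of 59.7. The 258 bp locus and the trnE-a1 locus were then no longer above percentile 95, nad4 was above it at 97.3, and the 1494 bp locus was no longer below percentile 5.

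**Figure D3:**
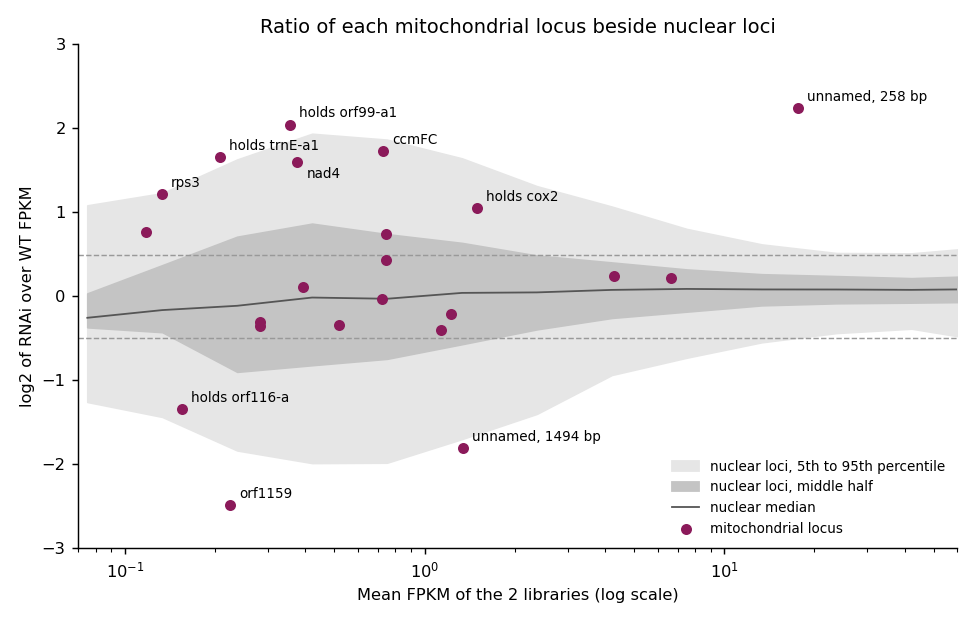
Log2 of RNAi over WT FPKM against the mean FPKM of the 2 libraries (log scale) for the 22 mitochondrial loci with a ratio (points), over nuclear loci (grey bands, 5th to 95th percentile and quartiles; line, median; dashed lines, the fold limits 1.4 and 0.71). Most points lie within the wide band at low FPKM, and the 258 bp locus lies alone at 2.23, above a 95th percentile of 0.57.

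Many mitochondrial loci had a value in only 1 library. Of the 43 loci, 24 were listed in both, 8 in RNAi only and 11 in WT only. Of all loci, 7.44% were listed in RNAi only and 8.83% in WT only. The share was read by mean FPKM, with an unlisted value taken as 0. At a mean FPKM of 0.1 to under 1, 10 of 26 mitochondrial loci were listed in a single library, close to the 39.3% of nuclear loci of that class. At 1 to under 10 they were 5 of 12, whereas 3.33% of nuclear loci of that class were listed in a single library. These 5 are rps12, nad5 and rps7 in RNAi and the part of nad2 and orf147-b in WT, and all but nad5 span under 500 bp. Among nuclear loci that short, 50.7% were listed in a single library.

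The loci listed on 1 side were not all close to the floor of the files. Taken over the lowest nuclear value of like span, the 11 WT-only loci ran from 1.32 to 6.33 times, with a median of 2.58, and 5 of them were under 2 times. The 8 RNAi-only loci ran from 1.52 to 67.0 times, with a median of 4.12. nad5 was the locus at 67.0 times, although a span counts introns as well as exons and may set the floor too low for a locus with several exons. Loci listed in both libraries had medians of 5.08 times in WT and 7.72 times in RNAi. No fold is given for a locus listed on 1 side, since an unlisted value has no known upper limit here.

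Short loci carried a large part of the mitochondrial signal. The 7 loci under 500 bp held 39.0% of the mitochondrial FPKM in WT and 62.7% in RNAi kernels. The 258 bp locus alone held 13.5% in WT and 39.7% in RNAi. Only 2 of the 7 were listed in both libraries, and the medians of the listed values were 4.63 and 6.96 FPKM. These levels were near those of nuclear loci under 500 bp, whose medians were 4.70 and 5.93 FPKM. The 16 loci of 2000 bp and over had medians of 0.360 FPKM in WT and 0.566 FPKM in RNAi, against 5.82 and 6.15 FPKM for nuclear loci of that span. In both libraries the mitochondrial median was below the nuclear one in each span class from 500 bp on, whereas under 500 bp it was above the nuclear median in RNAi and just below it in WT.

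**Figure D4:**
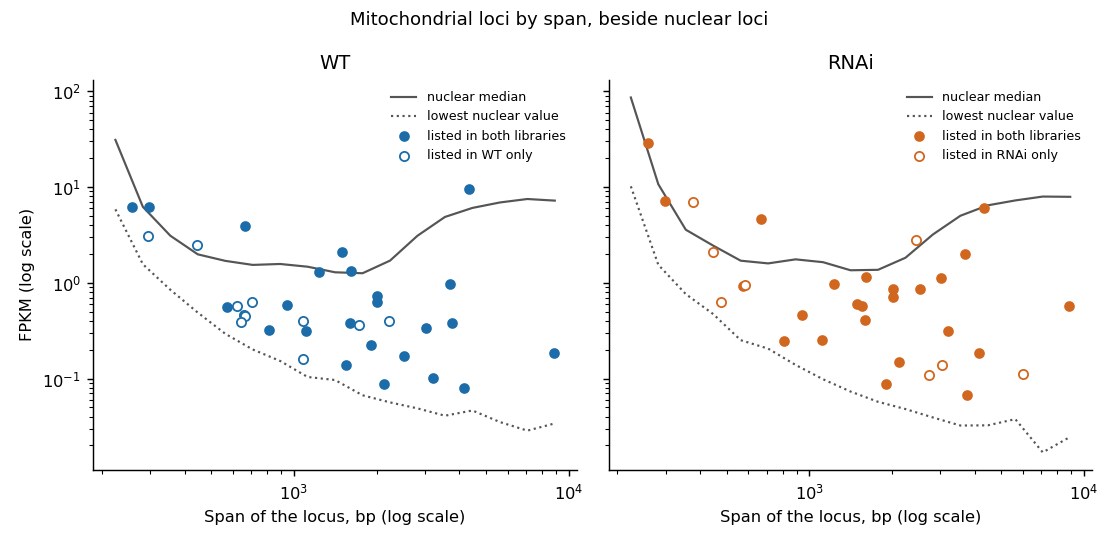
FPKM against the span of each mitochondrial locus (both log scales) in WT (left) and RNAi (right), with filled points for loci listed in both libraries and open points for loci listed in that library only; the lines are the nuclear median (solid) and the lowest nuclear value (dotted) at each span. The mitochondrial points lie between both lines or near the upper one below 500 bp, and mostly well under the nuclear median from 2000 bp on.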

How the data were processed

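According to the methods, the authors aligned reads to AGPv2 with TopHat and normalized the unique reads with Cufflinks; Bowtie 0.12.2 is listed in the submitters' processing notes. The deposited values are FPKM, 1 file per genotype, with positions and no gene names or counts. The series text speaks of triplicates, and whether a file pools them is not stated. For library preparation the methods cite the Illumina TruSeq Standard RNA LT guide. A poly(A) selection step was not given in the sources used here.

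Values with the same position were summed, and loci with equally many values in WT and RNAi were compared by their RNAi to WT ratio, without a pseudocount, at limits of 1.4 and 0.71. An FPKM minimum of 1 had to be met by either library, or none was set. With 1 library per genotype no test was made. Loci named by rule were the 10 highest in mean FPKM, the 5 highest and 5 lowest ratios, up to 5 listed in 1 library and every gene of the lists; the rest were named after their values were seen. Nuclear loci are those on sequences 1 to 10. Members, lists and alternatives were chosen with earlier results of these data known. Floors, span classes and the scalings without a minimum were added after the values were seen. The counting steps were tested on simulated data. Python 3.11.15, pandas 2.3.3, numpy 2.4.6 and matplotlib 3.10.9 were used.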

Additional observations from a re-analysis of the deposited data

How the results depend on the processing

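The mitochondrial sum was higher in RNAi under every setting tried but 1, added after seeing the data: without both the 258 bp locus and rps12 its ratio was 0.935. The ratio of summed FPKM was otherwise 1.59 as reported, 1.21 for loci of at least 300 bp, 1.11 without the 258 bp locus, 1.95 for loci with equally many values in WT and RNAi, 1.52 with RNAi divided by the median ratio of abundant loci and 1.80 with both libraries set to an equal sum. In the same order of loci, the share of FPKM in WT was 0.00246%, 0.00321% and 0.00246%, and the share in RNAi was 0.00336%, 0.00401% and 0.00525%; without loci whose mean FPKM reached 1000 the shares were 0.00924% and 0.0143%.

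The median ratio was 1.17 over 8 loci. It was 2.94 over 2 loci with a minimum of 5, 1.14 with a pseudocount of 1, 1.12 under the median-ratio scaling, 1.32 under the equal-sum scaling, 1.02 over 6 loci of at least 300 bp and 1.16 over 9 loci with unequal numbers of values kept. The counts of 3 loci above and 1 below became 9 and 3 with no minimum and 1 and 0 with a minimum of 5. They were 1 and 0 with a minimum of 1 in both libraries, and 2 and 1 for loci of at least 300 bp. With unequal numbers of values kept, 2 loci were below. With no minimum, a pair of settings chosen after seeing the data, the median-ratio scaling gave a median of 1.12 with 9 above and 3 below, and the equal-sum scaling gave 1.32 with 10 above and 3 below. The loci compared changed with the minimum, from 8 to 22 with none, 2 with a minimum of 5 and 4 with 1 in both libraries. The causes of the changes between settings were not tested. The equal-sum scaling turned the ratio of atp1-a1 from 0.978 to 1.1; the other 23 loci listed in both libraries kept their direction under both scalings and both pseudocounts. No paired analysis was possible because there is a single library of each genotype. The depth is unknown, so no counting error could be given.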
